A study of Mus musculus with 36 samples.

Results

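Monocytes that enter a tumour and mature there into macrophages lose some transcripts and gain others, and 10 genes of this change were followed: *Ly6c2*, *Plac8*, *Vcan*, *F13a1*, *S100a4*, *S100a6*, *S100a8*, *S100a9* and *Hp*, which are high in classical monocytes, and *Adgre1*, which encodes the macrophage surface protein F4/80. They were chosen by name, with earlier results of these data known, and all 10 were found among the 24781 genes counted. The gene lists used below were also chosen with such results known. The libraries came from mouse tumours of MC38, a colon adenocarcinoma line, taken on day 7 after inoculation. From each tumour 100 cells of a type were sorted, and molecules were barcoded before amplification, so that distinct molecules and not their copies were counted. There were 36 libraries, 18 of tumour-associated macrophages (TAMs, sorted as CD45+CD11b+ cells high in F4/80) and 18 of CD8+ T cells (sorted on CD45, TCRβ and CD8), with 6 libraries in each of 3 groups per cell type.

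The 3 groups were wild-type (WT) mice, *muMt*-/- mice, and *muMt*-/- mice carrying a pellet that released γ-aminobutyric acid (GABA). *muMt*-/- mice, of the C57BL/6J strain, lack mature B cells. For WT mice the strain is given for the study as a whole, as C57BL/6J or C57BL/6N, so that the substrain may differ between the groups compared. The labels name no treatment for mice without GABA, which were given placebo pellets, and such *muMt*-/- mice are called untreated here in the sense of no GABA. Mice were matched for age and sex, and over the whole study they were a few months old and of both sexes, with no age or sex given for a library. Nothing in the labels ties a TAM library to a CD8+ T cell library of the same animal.

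Classical monocytes leave the blood through the chemokine receptor CCR2, and in tissue they exchange a programme of adhesion, coagulation and alarmin genes for complement, lipid and scavenging genes. *Ly6c2* encodes a surface protein used to recognise these monocytes, and it is also made by CD8+ T cells. S100A8 and S100A9 together form calprotectin, which neutrophils make in bulk and monocytes in smaller amounts.

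The depth of TAM libraries had a median of 242756 molecules in WT mice (range 206394 to 304100). In *muMt*-/- mice the median was 149960 (range 100254 to 253608), and with GABA it was 192775 (range 151856 to 262606). CD8+ T cell libraries were smaller, with medians of 42066, 67122 and 80283 molecules. Levels are given as normalized numbers of molecules, which are counts divided by DESeq2's size factor of the library within its cell type. Between cell types they are given per 100000 molecules of a library. Each library is a pool of cells, so that fewer monocyte-like cells and less of a transcript per cell cannot be told apart.

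The sorted cells carried the transcripts of their gates. In WT mice *Adgre1* had 422 molecules over the 6 TAM libraries and 0 over the 6 CD8+ T cell libraries, which put it at least 25.2-fold higher in TAMs per 100000 molecules (floor of 3 counts over the group). Since F4/80 was part of the TAM gate, this follows from the sort. In the fit to all 36 libraries, 1928 of 8477 genes differed between WT TAMs and WT CD8+ T cells (22.7%), 16.8% of all genes being higher and 5.99% lower in TAMs (edgeR quasi-likelihood F-test, Benjamini-Hochberg adjusted p under 0.05). All 18 tested genes of a list of mature macrophage genes were higher in TAMs, and all 8 T cell genes were lower. Several of them, such as *Siglec1*, were abundant enough to be tested only through the cell type where they are high. The cells were also sorted by type, so that nothing more is read from these directions.

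The members did not separate the cell types in the same way. Of the 9 members tested, 4 passed the test: *Adgre1*, *F13a1* and *S100a6* were higher in TAMs and *Ly6c2* was lower. *F13a1*, the catalytic subunit of the fibrin-crosslinking coagulation factor, had 83 molecules in WT TAMs and 0 in WT CD8+ T cells, at least 4.95-fold higher per 100000 molecules (adjusted p = 0.00477). Like that of *Adgre1*, its fitted value rests on a WT CD8+ T cell group at 0, so that nothing is read from its p. *Ly6c2* stood at 33.1 per 100000 molecules in WT TAMs and 80.3 in WT CD8+ T cells (log2 fold change -1.04 ± 0.31 (SE), adjusted p = 0.00898). *Plac8* stood at 41.8 and 39.9 and did not pass the test (log2 fold change 0.38, adjusted p = 0.421). *S100a6* was higher by 0.86 (adjusted p = 0.00632), where the median of all genes was 0.36, and with edgeR's own filter on low counts it missed the threshold (adjusted p = 0.0515). Each of *Ly6c2*, *Plac8*, *S100a4* and *S100a6* was detected in all 6 WT CD8+ T cell libraries. Other genes of classical monocytes separated the cell types more: of 11 tested from a list of 12, 10 were higher in TAMs, and the median log2 fold change was 3.19.

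*Ly6c2* varied widely among TAM libraries of the same group. Its normalized number had a lowest value of 37.8, a median of 50.1 and a highest value of 92.3 in WT mice. In *muMt*-/- mice these were 36.8, 79.3 and 130.9, and in GABA-treated *muMt*-/- mice 17.3, 72.9 and 115.4. In *muMt*-/- mice 3 libraries lay above the highest WT library and 2 below the lowest, so that the groups overlapped at both ends. The log2 fold change of *muMt*-/- over WT mice was 0.38 ± 0.30 (SE), which did not pass the test (edgeR quasi-likelihood F-test, adjusted p = 0.610), and it was 0.13 without *muMt*-/- replicate 3.

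*Plac8*, a small cysteine-rich protein of monocytes and other leukocytes, was the member that rose. It had a lowest value of 40.1, a median of 68.7 and a highest value of 116.1 in WT TAMs, and of 54.0, 151.9 and 211.3 in TAMs of *muMt*-/- mice. In 5 of 6 libraries of *muMt*-/- mice it lay above the WT median, and in 3 of 6 above every WT library, while the lowest library of *muMt*-/- mice lay within the WT range. *Plac8* rose 1.87-fold (log2 fold change 0.90 ± 0.25 (SE), edgeR adjusted p = 0.0485).

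The call on *Plac8* was close to the threshold. It was lost in 8 of 12 fits that each left out 1 library: WT replicates 1, 2, 3 and 4 and *muMt*-/- replicates 2, 3, 4 and 6 (log2 fold change 0.75 to 1.08 over the 12 fits, adjusted p 0.00785 to 0.147). It was also lost with a robust fit (log2 fold change 0.90, adjusted p = 0.227) and with log2 library depth as a covariate (log2 fold change 1.10, adjusted p = 0.225), where the rise was no smaller than in the main fit. Over the 8 alternatives that kept all libraries of the comparison the adjusted p ran from 7.96e-05 to 0.227, and it was under 0.05 in 6.

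*Vcan*, the matrix proteoglycan versican, had a lowest value of 7.38, a median of 12.2 and a highest value of 18.2 in WT TAMs and of 9.32, 19.0 and 43.2 in *muMt*-/- mice. For *F13a1* these were 5.52, 10.9 and 14.5 in WT mice and 11.1, 18.03 and 21.9 in *muMt*-/- mice. All 6 libraries of *muMt*-/- mice lay above the WT median for *F13a1*, and 5 above every WT library, and the groups overlapped only through the lowest library of *muMt*-/- mice. Neither gene passed the test, with log2 fold changes of 0.74 ± 0.32 (SE) for *Vcan* (edgeR adjusted p = 0.262) and 0.71 ± 0.33 (SE) for *F13a1* (edgeR adjusted p = 0.296). Without *muMt*-/- replicate 4 that of *Vcan* was 0.45.

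The genes of the calcium-binding proteins S100A6 and S100A4 had negative fold changes. *S100a6* had a lowest value of 166, a median of 265 and a highest value of 343 in WT TAMs and of 148, 201 and 232 in *muMt*-/- mice. All 6 libraries of *muMt*-/- mice lay below the WT median, but the ranges overlapped, and the log2 fold change of -0.46 ± 0.16 (SE) missed the threshold (edgeR adjusted p = 0.122). *S100a4* ran from 112 to 197 in WT mice and from 106 to 135 in *muMt*-/- mice, with a log2 fold change of -0.26 (adjusted p = 0.513) that was -0.15 without WT replicate 1. Neither had the sign of *Plac8*.

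*S100a8*, *S100a9* and *Hp*, which encodes the haemoglobin-binding protein haptoglobin, had few molecules in most TAM libraries. *S100a8* had medians of 0.727 in WT mice and 2.94 in *muMt*-/- mice. *S100a9* was at 0 in the median WT library and at 1.86 in the median library of *muMt*-/- mice, and *Hp* at 0.363 and 3.25. None passed the test, and the log2 fold changes were 0.79 ± 0.73 (SE) for *S100a8*, -0.47 ± 0.82 (SE) for *S100a9* and 1.39 ± 0.79 (SE) for *Hp*. WT replicate 5 held most of the WT molecules of the calprotectin genes, 14 of 17 for *S100a8* and 22 of 25 for *S100a9*. Without it the log2 fold changes were 2.70 and 1.96, so that the sign for *S100a9* rests on that library. The log2 fold change of *S100a8* was 0.14 without *muMt*-/- replicate 2.

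*Adgre1* had similar medians in the 3 groups. Its lowest, median and highest values were 34.7, 53.9 and 72.9 in WT mice, 32.6, 47.8 and 86.7 in *muMt*-/- mice and 46.3, 49.6 and 69.0 in GABA-treated *muMt*-/- mice. The ranges lay over each other, and the log2 fold change of *muMt*-/- over WT mice was -0.05 ± 0.19 (SE, edgeR adjusted p = 0.943). Per *Adgre1* molecule there were 0.723 to 2.37 molecules of *Plac8* in WT libraries (median 1.41) and 1.07 to 6.48 in libraries of *muMt*-/- mice (median 2.67). For *Ly6c2* the ratio ran from 0.544 to 1.88 (median 1.16) and from 0.435 to 3.33 (median 1.67). Both ratios overlapped between the groups.

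**Figure D1:**
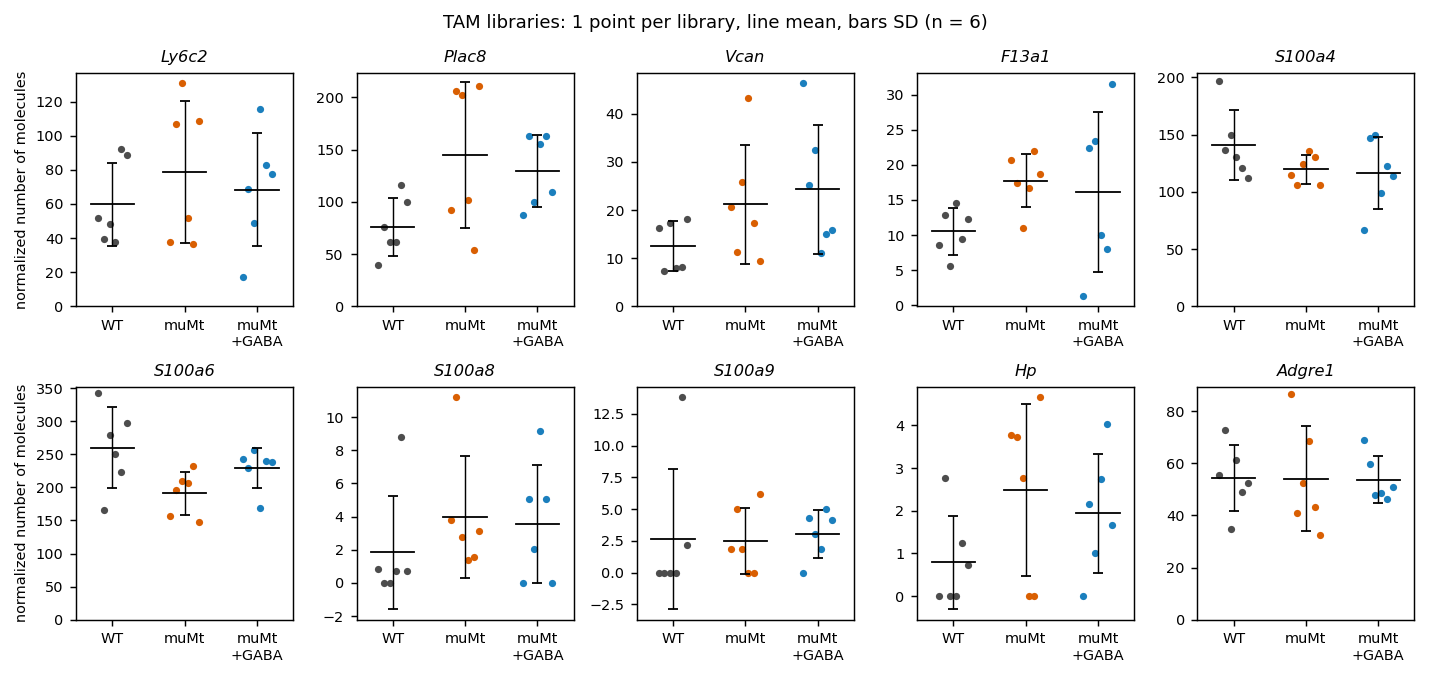
Normalized number of molecules (vertical axes) of the 10 genes in each of the 18 TAM libraries, by group (horizontal axes). Points are libraries, the line is the mean and the bars are the SD of 6 libraries. *Plac8* has its highest libraries, at up to 211.3, in *muMt*-/- mice, and for all 10 genes the groups overlap.

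Over all genes, 194 of 9469 differed between TAMs of *muMt*-/- and WT mice (2.05%), 97 of them being higher (1.02%), against 1 of the 10 members, *Plac8*. Without adjustment, 1408 genes (14.9%) had a p under 0.05, and so did 4 members: *Plac8*, *F13a1*, *Vcan* and *S100a6*, the last with a negative fold change. The median log2 fold change was 0.71 for the 9 monocyte genes, of which 6 were positive, and -0.05 for all genes tested. The number of genes called depended on single libraries, at 67 without *muMt*-/- replicate 4, 87 without WT replicate 1 and 125 without WT replicate 6. With log2 library depth as a covariate 11 genes passed. The libraries of *muMt*-/- mice held fewer molecules than those of WT mice, and the part of depth in these results was not tested beyond that fit.

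Other genes of classical monocytes were read from a list of 12, of which 11 were tested. In TAMs of *muMt*-/- mice 3 rose, 1 fell and 7 did not pass. *Ccr2*, the receptor through which monocytes are recruited, rose by 0.84 ± 0.19 (SE) on the log2 scale (edgeR adjusted p = 0.0106). *Fn1*, fibronectin, rose by 0.69 (adjusted p = 0.00527), and *Gda*, guanine deaminase, by 0.98 (adjusted p = 0.00349). *Lyz2*, lysozyme, fell by 0.74 (adjusted p = 0.0241). The median of the 11 genes was 0.62. *Fn1* and *Gda* were called in each of 12 fits that left out 1 library, *Ccr2* in 11 and *Lyz2* in 8. With log2 library depth as a covariate all 4 calls were lost, with log2 fold changes of 0.77 for *Fn1* (adjusted p = 0.0536), 0.90 for *Gda* (0.133), 0.41 for *Ccr2* (0.579) and -0.65 for *Lyz2* (0.335), of which only that of *Ccr2* moved by over 1.5 times.

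Of 19 mature macrophage genes, 3 fell, 0 rose and 16 did not pass in the same comparison (edgeR, adjusted p under 0.05), and their median was -0.19. *Trem2*, a lipid-sensing receptor, fell by 1.11 ± 0.24 (SE) on the log2 scale (adjusted p = 0.00828) and was called in each of the 12 fits. *C1qb* and *C1qc*, chains of complement C1q, fell by 0.62 and 0.57 (adjusted p = 0.0414 and 0.0483), and these calls held in 1 and 2 of the 12 fits. With log2 library depth as a covariate *Trem2* fell by 0.71 and its call was lost (adjusted p = 0.426), as were those of *C1qb* (log2 fold change -0.47, adjusted p = 0.517) and *C1qc* (-0.36, 0.610). The calls of *C1qb* and *C1qc* were also lost with the replicate number as a block (log2 fold changes -0.60 and -0.56, adjusted p = 0.0520 and 0.0509). The list did not move as one: *Mrc1*, the mannose receptor, had a log2 fold change of 1.27 (adjusted p = 0.0682), and *Mertk*, which binds dying cells, one of 0.90 (adjusted p = 0.0536). Without adjustment 3 of the 19 were higher and 7 lower at a p under 0.05, and DESeq2's Wald test called 2 higher, *Mertk* among them, and 3 lower.

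Among 7 transcription factors of monocytes, *Klf4* and *Zeb2* rose by 1.08 and 1.09 on the log2 scale (edgeR adjusted p = 0.00349 for both), and both were called in each of the 12 fits. Of 6 genes of recruitment and growth 1 rose, *Csf2rb*, the shared receptor chain for GM-CSF, by 0.71 (adjusted p = 0.0318, held in 4 of 12 fits). These 3 calls were lost with log2 library depth as a covariate, with log2 fold changes of 0.89 for *Klf4* (adjusted p = 0.157), 0.78 for *Zeb2* (0.257) and 0.73 for *Csf2rb* (0.242). The chemokine genes *Ccl2*, *Ccl7* and *Ccl12* had log2 fold changes of -0.54, -0.56 and -0.66 and did not pass. None of 6 non-classical monocyte genes, 6 receptors and partners of the members, 4 other S100 genes or 4 other Ly6 genes passed by edgeR or by DESeq2's Wald test. Without adjustment edgeR gave 2, 2, 0 and 1 of them with a p under 0.05.

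Of 3 listed nuclear RNAs, all detected, 2 passed in this comparison. *Neat1* rose by 1.22 and *Malat1* by 0.82 on the log2 scale (edgeR adjusted p = 8.6e-05 and 0.00385). The third, at a log2 fold change of 0.66, had an unadjusted edgeR p under 0.05 but did not pass by edgeR or by DESeq2's Wald test. With log2 library depth as a covariate the call of *Malat1* was lost (adjusted p = 0.0988) at a log2 fold change of again 0.82, while *Neat1* passed in all 8 alternatives that kept all libraries of the comparison (highest adjusted p = 0.0149). Their summed level was 317 to 388 per 100000 molecules in WT TAMs, 469 to 1047 in *muMt*-/- mice, with the highest value in replicate 4, and 349 to 533 in GABA-treated *muMt*-/- mice, with *Malat1* the most abundant. The part of this difference in the rise of *Plac8* and of the listed genes was not tested.

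Markers of other cells were also counted in TAMs. Of 13 neutrophil genes, 7 were detected in WT mice and 6 in *muMt*-/- mice, at a summed 3.19 to 9.54 (median 4.95) and 3.99 to 12.9 (median 9.36) per 100000 molecules, with *Csf3r* the most abundant. In GABA-treated *muMt*-/- mice 7 were detected, at 3.51 to 7.54 (median 5.89). *Retnlg*, *Camp*, *Ngp*, *Elane* and *Mpo* were at 0 in all 18 TAM libraries. Of the 4 neutrophil genes tested, 3 had positive log2 fold changes of *muMt*-/- over WT mice (median 0.81) and none passed, and their part in the values of *S100a8*, *Hp* and the other monocyte genes was not tested. Dendritic cell genes summed to at most 12.4, T cell genes to at most 3.96 and B cell genes to at most 2.06 per 100000 molecules in any TAM library, and of 5 eosinophil genes none was tested. The medians for dendritic cell genes were 3.89 in WT mice, 4.16 in *muMt*-/- mice and 8.25 with GABA. Of the 3 tested, 2 had positive log2 fold changes of *muMt*-/- over WT mice (median 1.05). For GABA-treated *muMt*-/- over WT mice all 3 were positive (median 1.19). Tumour and stromal genes were more abundant, with medians of 34.2 per 100000 molecules in WT mice (range 9.21 to 342), 35.3 in *muMt*-/- mice (range 6.43 to 137) and 50.7 with GABA (range 37.5 to 192). *Col3a1* was the most abundant of them, at a mean normalized number of 86.8 over the TAM libraries. All 4 tested had negative log2 fold changes of *muMt*-/- over WT mice (median -0.72), and *Epcam*, *Krt18* and *Krt19* were at 0. None of these lists held a gene that passed between TAMs of *muMt*-/- and WT mice by edgeR or by DESeq2's Wald test. Without adjustment edgeR gave 1 neutrophil gene, 1 dendritic cell gene and 1 tumour or stromal gene with a p under 0.05.

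GABA-treated *muMt*-/- mice were compared with *muMt*-/- mice to see whether the agent changed these genes where B cells were missing. *Plac8* in GABA-treated mice had a lowest value of 87.6, a median of 132.7 and a highest value of 163.1, inside the range of *muMt*-/- mice. *Vcan* ran from 10.99 to 46.5 (median 20.5). *F13a1* ran from 1.33 to 31.6 (median 16.2), wider than in the other groups at both ends. *S100a6* had a median of 239, between those of *muMt*-/- and WT mice.

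No member passed between GABA-treated and untreated *muMt*-/- mice. Of 9469 genes 2 did (0.0211%), *BC018473* and *Lrrc17*, and DESeq2's Wald test called 62 genes and 0 members. Without adjustment edgeR gave 801 genes with a p under 0.05 (8.46%) and 0 members. The log2 fold changes of the members ran from -0.17 for *Ly6c2* to 0.55 for *S100a9*, which was 0.17 without *muMt*-/- replicate 5. Without GABA replicate 1, the library with the lowest *Ly6c2* and *F13a1*, 36 genes passed. That library stood apart from its group beyond the members. Its counts differed from those of the other GABA-treated TAM libraries by a chi-square per gene of 4.20 to 10.8, against 1.47 to 3.96 among those others.

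Of the 11 other classical monocyte genes, edgeR called 0 between GABA-treated and untreated *muMt*-/- mice, and 3 had an unadjusted p under 0.05. These were *Ccr2*, *Fn1* and *Gda*, with log2 fold changes of -0.63 ± 0.19 (SE), -0.40 ± 0.14 (SE) and -0.64 ± 0.19 (SE) and edgeR adjusted p-values of 0.259, 0.344 and 0.240. DESeq2's Wald test called the same 3 genes. The nuclear RNAs *Malat1* and *Neat1* had log2 fold changes of -0.66 and -0.70 (edgeR adjusted p = 0.139 and 0.132) and were also called by DESeq2, and their part in the values of the monocyte genes was not tested. Both comparisons use the same 6 libraries of untreated *muMt*-/- mice, so that genes called higher there against WT mice tend to a negative sign here with no change by GABA, and nothing is read from these signs.

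Against WT mice, 7 genes passed in GABA-treated *muMt*-/- mice (0.0739%) and 0 members, and DESeq2's Wald test gave 13 genes and 0 members. Without adjustment 665 genes (7.02%) and 3 members had a p under 0.05, with log2 fold changes of 0.91 for *Vcan* (edgeR adjusted p = 0.432), 0.78 for *Plac8* (0.393) and 0.69 for *F13a1* (0.684), the last being 0.38 without GABA replicate 6. All 6 GABA-treated libraries lay above the WT median for *Plac8*. These libraries are compared with the same WT mice as those of untreated *muMt*-/- mice, so that the 2 sets of values are not independent. With 1 library left out the number of genes called ran from 2 to 9, and it was 2 without WT replicate 3, WT replicate 6, GABA replicate 2 or GABA replicate 3.

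**Figure D2:**
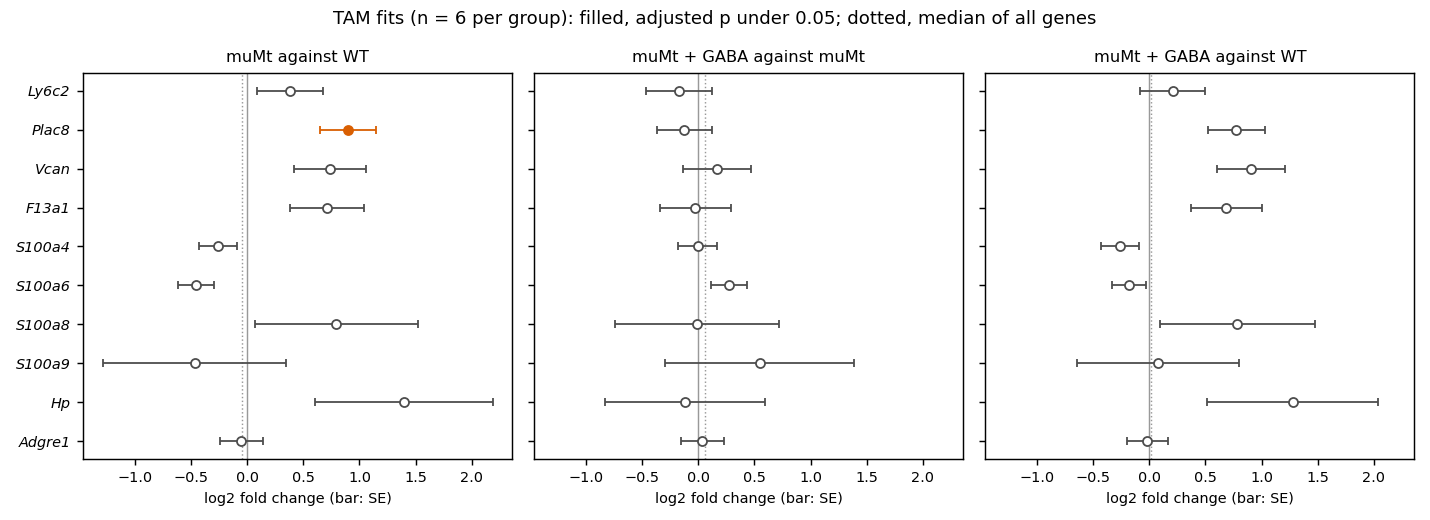
Log2 fold changes (horizontal axes) of the 10 genes in the 3 comparisons of TAM groups, with 6 libraries per group; bars are the SE and the dotted line is the median of all genes tested. *Plac8* at 0.90 in *muMt*-/- against WT mice is the filled point, with an adjusted p under 0.05 in edgeR's quasi-likelihood test.

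In CD8+ T cells 7 of the 10 members were abundant enough to be tested, and *S100a9*, *Hp* and *Adgre1* were not. *Plac8* had a lowest value of 12.8, a median of 21.4 and a highest value of 35.4 in WT mice, of 35.1, 42.6 and 49.8 in *muMt*-/- mice and of 19.2, 47.6 and 64.8 in GABA-treated mice. In *muMt*-/- mice 5 of 6 libraries lay above every WT library, and the sixth lay just inside the WT range. Its log2 fold change of *muMt*-/- over WT mice was 1.01 ± 0.27 (SE), and of GABA-treated *muMt*-/- over WT mice 1.13 ± 0.26 (SE), neither of which passed over all genes (edgeR adjusted p = 0.318 and 0.273). *Ly6c2* ran from 26.3 to 67.3 in WT mice, from 31.3 to 64.9 in *muMt*-/- mice and from 29.9 to 84.3 in GABA-treated mice.

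No gene of 6663 passed in CD8+ T cells between *muMt*-/- and WT mice (0%), between GABA-treated and untreated *muMt*-/- mice (0%) or between GABA-treated *muMt*-/- and WT mice (0%) with edgeR's quasi-likelihood test, and so 0 members did. DESeq2's Wald test called 0, 0 and 1 genes. With p under 0.05 and no adjustment edgeR gave 411 genes (6.17%), 247 (3.71%) and 459 (6.89%), and 3, 2 and 1 members. The 3 members were *Plac8*, *S100a4* and *F13a1*, the 2 were *S100a4* and *Vcan*, and the 1 was *Plac8*. *F13a1* was at 0 in all 6 WT libraries, and *muMt*-/- replicate 1 held 13 of the 15 molecules of its group. Its mean of 1.18 passed the filter only through the groups with molecules, so that nothing is read from its p. Without WT replicate 5, 13 genes passed between *muMt*-/- and WT mice.

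Macrophage transcripts were also counted in the CD8+ T cell libraries, at levels that overlapped between the groups but had a lower median in WT mice. The 19 mature macrophage genes summed to 7.46 to 85.0 per 100000 molecules in WT mice (median 28.9, 14 of 19 detected). In *muMt*-/- mice they summed to 32.5 to 315 (median 86.8, 18 of 19 detected, *C1qb* the most abundant), and in GABA-treated mice to 17.4 to 238 (median 109, 17 of 19 detected, *Apoe* the most abundant). *Siglec1* was at 0 in all 18 libraries. *muMt*-/- replicate 1 had the highest sum and also 13 of the 15 *F13a1* molecules of its group. Other classical monocyte genes, 12 in all, summed to 11.9 to 124 per 100000 molecules in WT mice (median 32.9, 10 of 12 detected, *Ifitm6* and *Clec4e* at 0). In *muMt*-/- mice the sum was 53.9 to 518 (median 127, 11 of 12 detected), and in GABA-treated mice 42.0 to 335 (median 140, 12 of 12 detected), with *Fn1* the most abundant in all 3 groups. All 11 tested had positive log2 fold changes of *muMt*-/- over WT mice, with a median of 1.99 where that of all genes was 0.15, and 7 had an unadjusted p under 0.05. Against WT mice all 11 were positive in GABA-treated mice, with a median of 1.69, and 4 had an unadjusted p under 0.05. Both comparisons use the same WT libraries, so that their values are not independent and nothing is read from the shared sign. None passed in either comparison. The part of these transcripts in the values of *Plac8*, *F13a1* and *Vcan* in CD8+ T cells was not tested.

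**Figure D3:**
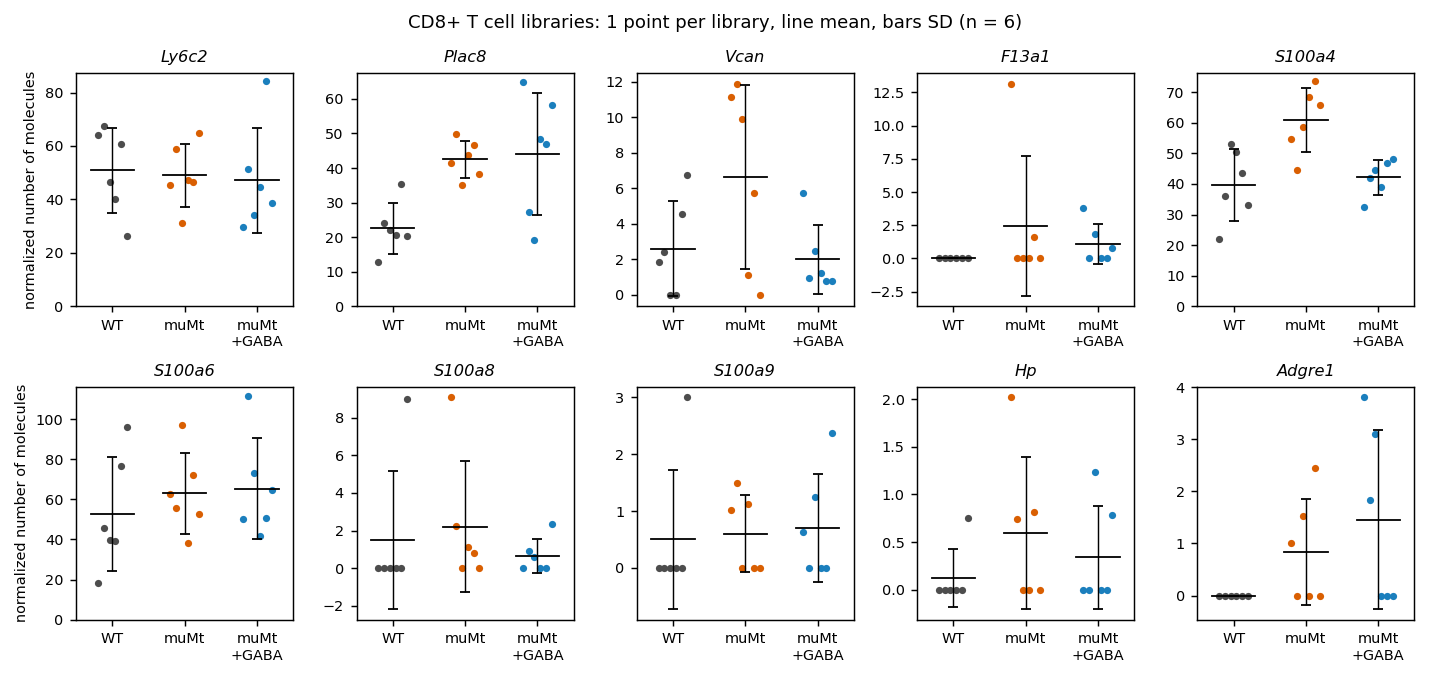
Normalized number of molecules (vertical axes) of the 10 genes in each of the 18 CD8+ T cell libraries, by group (horizontal axes). Points are libraries, the line is the mean and the bars are the SD of 6 libraries. *Plac8* has medians of 21.4, 42.6 and 47.6. *F13a1* is at 0 in WT mice, is carried by replicate 1 in *muMt*-/- mice and was found in 3 GABA-treated libraries.

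Whether the members responded differently in the 2 cell types was tested as an interaction in the fit to all 36 libraries. For *muMt*-/- against WT mice 1 of 8477 genes passed (0.0118%), *BC018473*, and 0 of the 9 members tested. Without adjustment 853 genes (10.1%) had a p under 0.05, and 4 members did, *Adgre1*, *F13a1*, *S100a4* and *S100a6*. The fitted values for *Adgre1* and *F13a1* rest on a WT CD8+ T cell group at 0. DESeq2's Wald test called 38 genes. *Plac8*, called in TAMs and not in CD8+ T cells, had an interaction of -0.13 ± 0.41 (SE, adjusted p = 0.962), so that no difference between the cell types was shown. *S100a4* had -1.01 ± 0.28 (SE, edgeR adjusted p = 0.212), where the median of all genes was -0.30.

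For GABA-treated against untreated *muMt*-/- mice 0 genes passed (0%) by edgeR's test and 0 members. Without adjustment 384 genes (4.53%) had a p under 0.05, and 1 member did, *Vcan*, with an interaction of 1.77 ± 0.68 (SE, edgeR adjusted p = 0.994). DESeq2's Wald test called 0 genes.

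The members did not vary as one set among the 18 TAM libraries. Pearson's r with *Ly6c2*, on log2 normalized numbers plus 1, was 0.70 for *Plac8* (Spearman's rho 0.79), 0.69 for *S100a9* (rho 0.63), 0.61 for *S100a8* (rho 0.55) and 0.60 for *Hp* (rho 0.52). The permutation p was 0.00135, 0.00155, 0.00779 and 0.00837 for r, and 0.00025, 0.00635, 0.0189 and 0.0296 for rho. With *Adgre1*, 5 of the 9 members had a permutation p of r under 0.05 without adjustment, and so did 15.3% of all 9468 other genes tested. Adjusted over all genes 0 members passed, with *Plac8* at 0.0704 and *S100a9* at 0.0716, against 99 genes (1.05%). By r *Plac8* stood at rank 113, *S100a9* at 141, *S100a8* at 304 and *Hp* at 319 of the 9468 genes, so that these relations are not particular to the members. With the group means removed r was 0.78, 0.71, 0.60 and 0.61 (permutation within groups, unadjusted p = 0.00015, 0.00133, 0.0104 and 0.0168), and rho was 0.80, 0.68, 0.55 and 0.47, with an unadjusted p of 0.0769 for *Hp*. Within the WT, *muMt*-/- and GABA-treated groups r was 0.67, 0.95 and 0.78 for *Plac8*, but for *Hp* it was 0.19 in WT mice. Without the 2 libraries farthest from the median of *Ly6c2*, GABA replicate 1 and *muMt*-/- replicate 3, r was 0.78, 0.74, 0.57 and 0.53. *S100a8*, *S100a9* and *Hp* have few molecules in most libraries, and several libraries are tied at 0.

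Of the other 5 members, *Adgre1* had r = -0.51 and rho = -0.44 with *Ly6c2* (permutation p = 0.0287 and 0.0654, and 0.254 for r adjusted over all genes). *Vcan* had r = -0.36 and rho = -0.25 (permutation p = 0.141 and 0.317), although it is listed with *Ly6c2* as a monocyte gene. *F13a1* had r = 0.34 and rho = -0.06 (permutation p = 0.160 and 0.824), and *S100a6* had r = -0.20 and rho = -0.27 (permutation p = 0.421 and 0.281). *S100a4* had r = 0.08 and rho = -0.33 (permutation p = 0.743 and 0.176), and r was -0.58 without the 2 libraries named above. *F13a1* likewise turned to -0.11 without them.

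The genes most like *Ly6c2* over the 18 TAM libraries, among 5309 others whose normalized number averaged 5 or more, were *Cfb* (r = 0.91), *Ly6i* (0.90), *Pfkp* (0.90), *Tmsb10* (0.89) and *Ly6a* (0.88). *Plac8* came at rank 97. For *Adgre1* they were *Dapk1* (r = 0.74), *Bhlhe41* (0.73), *Map1b* (0.73), *Rasgef1b* (0.72) and *Med19* (0.72). These are descriptions over libraries that share groups and depth, with no test.

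**Figure D4:**
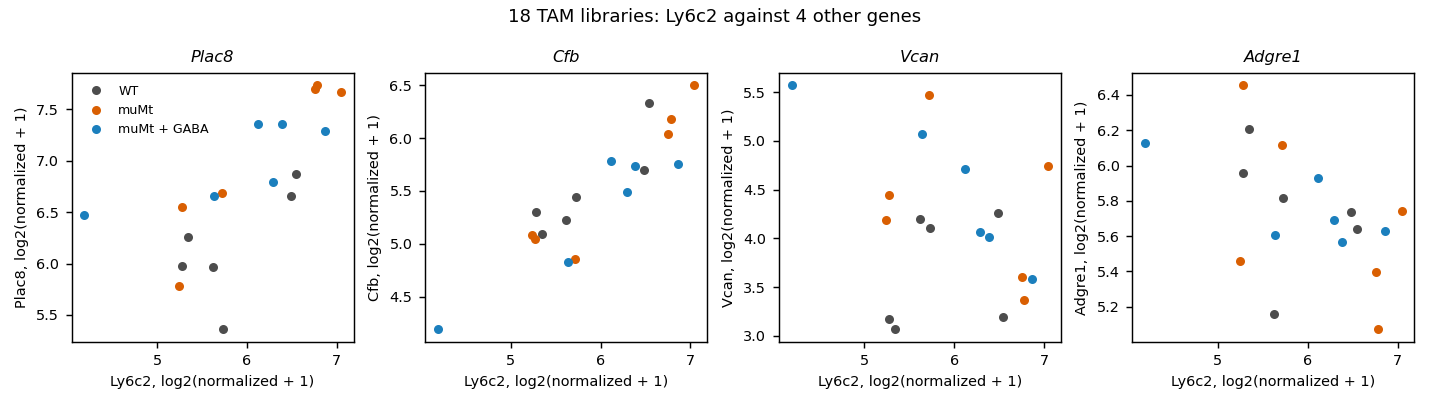
Log2 normalized number of *Plac8*, *Cfb*, *Vcan* and *Adgre1* (vertical axes) against that of *Ly6c2* (horizontal axes), both plus 1, in 18 TAM libraries coloured by group. *Plac8* (r = 0.70) and *Cfb* (r = 0.91) increase with *Ly6c2*, while *Vcan* (r = -0.36) and *Adgre1* (r = -0.51) do not.

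Counts of *Ly6c2* may include molecules of its neighbour *Ly6c1*. In GENCODE transcripts the last 300 bases of the 2 genes align over 297 positions, of which 291 are identical (98.0%), against 84.4% for *Ly6a* and 87.2% for *Ly6i*. How reads that match both genes were counted is not given in the sources used here. *Ly6c1* itself had a log2 fold change of -0.21 in TAMs of *muMt*-/- over WT mice (edgeR adjusted p = 0.896).

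The members lie on several chromosomes of the mouse genome (GRCm38.p6, RefSeq annotation). *Ly6c2* is at chr15:75108161-75112066, *Plac8* at chr5:100551589-100572253 and *Adgre1* at chr17:57358581-57483529. *Vcan* at chr13:89655309-89743027 and *F13a1* at chr13:36867178-37050244 share a chromosome but lie far apart. *S100a4*, *S100a6*, *S100a8* and *S100a9* lie within 92.0 kb of chromosome 3 (chr3:90603770-90695721), and *Hp* is at chr8:109575128-109579172. Of these 4 neighbours, *S100a8* and *S100a9* had an r with *Ly6c2* above 0.60 over the TAM libraries, and *S100a4* and *S100a6* had not.

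Promoters of 300 bases, 250 of them before a start site, were matched for 8 of the 10 members. For *Ly6c2*, *Plac8* and *Vcan* that start site lies inside the RefSeq gene span given above and not at its first base. The promoters of *Ly6c2* and *Plac8* are shown because *Plac8* was the member called in TAMs and had the highest r with *Ly6c2* among the members. Capitals mark motifs searched on both strands after the results were seen: TTNNGNAA for C/EBP factors, found in 40.7% of 27025 promoters, GAGGAAG for PU.1, in 13.5%, and GGGTGTGG for KLF factors, in 3.57%. The *Ly6c2* promoter (chr15:75111922-75112221, minus strand) holds 2 matches for C/EBP, both on the opposite strand, and 2 for PU.1. The *Plac8* promoter (chr5:100572156-100572455, minus strand) holds 1 for C/EBP and 1 for KLF, the last on the opposite strand. Over the 8 promoters the C/EBP letters were found in those of *Ly6c2*, *Plac8*, *F13a1*, *S100a8* and *S100a9*, the PU.1 letters in those of *Ly6c2*, *F13a1*, *S100a4* and *S100a8*, and the KLF letters in that of *Plac8* alone. A match of letters is a description and not a bound site.
Ly6c2: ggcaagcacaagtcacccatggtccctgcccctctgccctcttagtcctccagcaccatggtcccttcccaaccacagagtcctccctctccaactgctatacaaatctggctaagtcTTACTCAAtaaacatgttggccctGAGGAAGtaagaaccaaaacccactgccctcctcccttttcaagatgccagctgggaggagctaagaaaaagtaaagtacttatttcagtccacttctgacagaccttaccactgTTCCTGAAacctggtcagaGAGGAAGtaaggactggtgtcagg
Plac8: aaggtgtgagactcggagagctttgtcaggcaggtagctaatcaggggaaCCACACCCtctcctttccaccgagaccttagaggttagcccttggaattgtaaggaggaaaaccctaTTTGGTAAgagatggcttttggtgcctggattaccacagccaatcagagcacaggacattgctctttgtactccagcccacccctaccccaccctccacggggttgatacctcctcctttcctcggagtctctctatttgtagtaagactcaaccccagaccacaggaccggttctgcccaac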

How the data were processed

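The authors mapped reads with STAR to mm10 and deposited counts of distinct molecules per gene and library, without normalization, and these counts were used here. The 10 members and all gene lists were chosen with earlier results of these data known. Groups came from the sample labels, and each value column was tied to a sample. Genes with a mean DESeq2-normalized number above 1 within the libraries of a fit were tested with edgeR 4.0.16 (quasi-likelihood F-test, TMM, 1 coefficient per group) in R 4.3.3, with Benjamini-Hochberg adjustment over all genes tested and a threshold of 0.05. The SE of a log2 fold change is its size divided by the square root of F. DESeq2 1.42.0 gave size factors and a Wald test. Correlations used 100000 two-sided permutations, within groups where group means were removed, in Python 3.11.15 with scipy 1.17.1, and adjustment of their p over all genes was added after the values were seen.

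The alternatives were DESeq2's size factors, its Wald test, filterByExpr, no filter, a robust fit, the replicate number as a block, log2 library depth as a covariate, the 12 libraries of a comparison alone, leaving out each library in turn and, for correlations, log2 counts per 10000 molecules. Genes named are the members, listed genes past the threshold in a TAM comparison, the most abundant gene of each list, listed markers of other cells above a mean of 1, and the 5 genes most like *Ly6c2* and *Adgre1*, though not every gene that this rule allows is named. *BC018473*, *Lrrc17*, *Mrc1*, *Mertk*, *Ccl2*, *Ccl7*, *Ccl12*, *Ly6c1*, *Ifitm6*, *Clec4e*, *Siglec1*, *Retnlg*, *Camp*, *Ngp*, *Elane*, *Mpo*, *Epcam*, *Krt18* and *Krt19* fall outside this rule or were picked within a list, and were chosen after their values were seen. A run on simulated data checked the steps. Immunoglobulin constant genes were not analysed here, and some listed genes are not reported by name.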

Additional observations from a re-analysis of the deposited data

Results flagged for a closer look

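In 58 sets of 6 libraries (1 gene in 1 group) the highest or lowest library was compared with its nearest neighbour by Dixon's test. It stood apart in 10 sets. The test's rate of about 1 in 20 sets, or 2.9 of 58, does not hold for sparse counts. Where all other libraries are at 0, any single library with molecules is flagged, as for *S100a8*, *S100a9* and *Hp* in WT CD8+ T cells. No excess over chance is therefore read from the 10. Values are normalized numbers of molecules, and most rest on few molecules.

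In TAMs, WT replicate 5 was far above the other WT libraries for *S100a8*, at 8.79 with the next library at 0.853, and for *S100a9*, at 13.8 with the next at 2.18. *muMt*-/- replicate 2 stood out for *S100a8* at 11.2. GABA-treated replicate 4 was far below its group for *S100a6* at 169, with the next library at 230.

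In CD8+ T cells, WT replicate 6 was the single library of its group above 0 for *S100a8* (9.01), *S100a9* (3.004) and *Hp* (0.751, from 1 molecule). *muMt*-/- replicate 1 stood apart for *F13a1* at 13.1 and for *S100a8* at 9.10, and GABA-treated replicate 1 for *Vcan* at 5.72. *muMt*-/- replicate 1 also had the highest summed level of mature macrophage genes of its group, 315 per 100000 molecules, and its part in these values was not tested.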

How the results depend on the processing

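Of 587 values under alternatives that kept all libraries of the comparison, 548 kept their direction and side of the threshold, and of 752 with 1 library left out 650 did. The cause was not tested for the others. In TAMs, *muMt*-/- against WT mice (194 genes), 295 genes were called with filterByExpr, 343 with no filter, 323 with the 12 libraries alone and 11 with the depth covariate. The member called became 0 with the robust fit and with the depth covariate, which also turned *S100a9* to 0.45. For GABA-treated against untreated *muMt*-/- mice (2 genes) the count was 62 with the Wald test, 4 with the replicate block, 51 with no filter, 4 with the robust fit and 5 with the depth covariate, which turned *Hp* to 0.20. For GABA-treated *muMt*-/- against WT mice (7 genes) it was 13 with the Wald test, 2 with filterByExpr, 63 with no filter and 4 with 12 libraries. With no filter 2 members, *Plac8* and *Vcan*, were called there.

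In CD8+ T cells no filter gave 72, 11 and 64 genes in the 3 comparisons and 1 member, *Plac8*, in both comparisons with WT mice. The 12 libraries alone gave 1 gene in each of those 2. The replicate block gave 2 genes for GABA-treated against untreated mice and 1 for GABA-treated against WT mice, where size factors and the Wald test also gave 1. The depth covariate gave 6 for GABA-treated against untreated mice. Against WT mice *Ly6c2* turned to -0.0194 in *muMt*-/- mice and -0.083 in GABA-treated mice with size factors, to -0.0212 and -0.0848 with the Wald test, and to -0.045 and -0.13 with filterByExpr. *S100a8* turned to 0.40 with the Wald test and 0.29 with the block in *muMt*-/- against WT mice. With the depth covariate *S100a6* turned to -0.11, -0.048 and -0.16 in the 3 comparisons, and *Ly6c2* to 0.11 between GABA-treated and untreated mice.

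Between cell types, filterByExpr gave 1166 genes for WT mice. The interaction for *muMt*-/- against WT mice had 0 genes with size factors and filterByExpr, 38 with the Wald test and 2 with the block. There *Plac8* turned to 0.075, 0.074 and 0.019 with size factors, the Wald test and filterByExpr, and *S100a9* to 0.13 and 0.16 with the first 2. Within a cell type, TAM libraries of different groups with the same replicate number had a median r of 0.0074, and others one of -0.0061. For CD8+ T cells these were -0.021 and 0.00093, and 5 of 18 same-number pairs had an r over 0.1, as had 15 of 90 others. Pairs of a TAM library with a CD8+ T cell library were not examined. Of the 9 relations with *Ly6c2* by r, 4 passed when adjusted over the 9, and 0 when adjusted over all genes, a setting chosen after seeing the data.

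With 1 library left out, genes called ranged from 67 to 231, 2 to 36 and 2 to 9 in TAMs (*muMt*-/- against WT, GABA-treated against untreated, GABA-treated against WT), and from 0 to 13, 0 to 1 and 0 to 1 in CD8+ T cells. Members called ranged from 0 to 1 in TAMs of *muMt*-/- against WT mice. Log2 fold changes that changed sign there were *S100a9* (-0.91 to 1.96) and *Adgre1* (-0.21 to 0.043). In GABA-treated against WT TAMs they were *Ly6c2* (-0.0071 to 0.38), *S100a9* (-0.19 to 2.498) and *Adgre1* (-0.12 to 0.077). In GABA-treated against untreated TAMs they were *Ly6c2* (-0.39 to 0.068), *Plac8* (-0.30 to 0.020), *Vcan* (-0.057 to 0.45), *F13a1* (-0.32 to 0.17), *S100a4* (-0.10 to 0.11), *S100a8* (-0.52 to 0.64), *Hp* (-0.48 to 0.13) and *Adgre1* (-0.066 to 0.18). In CD8+ T cells they were *Ly6c2* (-0.059 to 0.19) and *S100a8* (-1.30 to 0.13) for *muMt*-/- against WT mice, *Ly6c2* (-0.15 to 0.19) and *Vcan* (-1.12 to 0.27) for GABA-treated against WT mice, and *Ly6c2* (-0.28 to 0.12), *Plac8* (-0.031 to 0.25) and *S100a6* (-0.10 to 0.22) for GABA-treated against untreated mice. None of the values that changed sign had passed the test.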
